A study of Mus musculus with 12 samples.

Results

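The nuclear genome encodes most of the proteins of oxidative phosphorylation, and 85 of the 32867 genes in the retinal gene table were taken as such genes by name. A gene was a member if its symbol began with Nduf followed by a, b, c, s or v and a digit, with Uqcr, with Cox and a digit from 4 to 8, or with Atp5, or was Sdha, Sdhb, Sdhc or Sdhd, and if it did not contain "-ps". The rule gave 37 genes of complex I, 4 of complex II, 8 of complex III, 19 of complex IV and 16 of complex V. Ndufa4 and its paralog Ndufa4l2 were set with complex IV, where the Ndufa4 protein is bound, and Atp5s, which is no subunit of the synthase, with none. Of the names that match, 4 contained "-ps" and were left out. One of them, Ndufb1-ps, had 203 to 348 counts per sample.

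RNA of whole retinas was sequenced from 12 samples, 3 in each of 4 groups of mice. C3H wild-type samples were labelled with postnatal days 13, 23 and 29, one each. Pde6b rd1 samples, with the retroviral insertion in the gene for the beta subunit of rod phosphodiesterase, were of day 13, and Pde6b rd10 samples, with a point mutation in the same gene, of day 23. Prph rd2 samples, whose mutated peripherin gene leaves photoreceptors without outer segments, were of day 29, and the labels place each model at its peak of photoreceptor death. The alleles are carried in every cell of the retina, and the study's methods state that sex was not a criterion for the animals. The study's methods give a C3H background, shared with the wild type, for Pde6b rd1 and a C57Bl6/J background for Pde6b rd10. For Prph rd2 the methods and the labels differ, with C3H in the methods and C57Bl6/J in the labels. Mutation and strain cannot be told apart for Pde6b rd10, nor, if the labels are right, for Prph rd2, and each model was sampled on a single day. The stated backgrounds are not taken as shown for any group, Pde6b rd1 included. Nothing in the labels says that replicates came from separate animals, so p-values measure only the spread between these samples. Gene counts summed to between 17049495 and 24755890 per sample.

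Complex I takes electrons from NADH and complex II from succinate, complex III passes them to cytochrome c, and complex IV hands them to oxygen. The protons pumped on the way drive complex V, the ATP synthase. Photoreceptors pack mitochondria into the ellipsoid of the inner segment, so a large part of the retina's mitochondrial mass lies in the cells that these models lose.

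The sample groups differed in more than genotype. The summed level of 12 rod markers, in library-scaled counts after TMM scaling (normalised CPM), ranged from 34496 to 35653 in the C3H samples. It ranged from 18436 to 18629 for Pde6b rd1, from 27616 to 28636 for Pde6b rd10 and from 23008 to 24186 for Prph rd2, and no rod marker was at 0. Of the 12, 11 were lower at an adjusted p under 0.05 for Pde6b rd1, 10 for Pde6b rd10 and 10 for Prph rd2. The 8 microglial markers summed to 62.3 to 63.7 in C3H and to 186 to 212 in Pde6b rd10, and the 4 markers of reactive glia to 199 to 215 and 812 to 875. The 9 cone markers summed to 546 to 561 in C3H, 388 to 402 in Pde6b rd1 and 804 to 818 in Pde6b rd10, the 7 markers of Mueller glia to 3503 to 3634 in C3H and 1889 to 1931 in Pde6b rd1, and the 3 endothelial markers to 464 to 480 in C3H and 320 to 338 in Pde6b rd10. Markers of inner retinal neurons differed too. The 8 bipolar markers summed to 2072 to 2137 in C3H and 1776 to 1791 in Pde6b rd10. For the 7 ganglion cell markers the sums were 1048 to 1075 in C3H and 762 to 768 in Pde6b rd1. Amacrine markers, 7 in number, summed to 1163 to 1182 in C3H, 1015 to 1039 in Pde6b rd1 and 1243 to 1266 in Pde6b rd10. These markers were split at an adjusted p under 0.05 by edgeR. In Pde6b rd1 2 were higher and 4 lower, and in Pde6b rd10 3 were higher and 2 lower, with a median log2 change of -0.0028. Xist lay between 0.386 and 0.517 normalised CPM in C3H and between 3657 and 3890 in Pde6b rd1, 715 and 802 in Pde6b rd10 and 1558 and 1980 in Prph rd2. The 4 Y-linked genes were at 0 in every Pde6b rd1 sample and summed to 284 to 309 in C3H, 196 to 231 in Pde6b rd10 and 109 to 133 in Prph rd2. Sex-linked transcripts thus differed from C3H in each of the 3 comparisons, and sex cannot be told apart from genotype. Over all genes tested, the median coefficient of variation among the C3H samples of 3 labelled days was 5.89%, beside 5.99% among the Pde6b rd1 samples of a single day. The C3H samples were thus as alike as samples of a single day, and whether their labelled days are right was not tested, so every value against the C3H sample of the same day rests on these labels. Counting error alone would give medians of 5.35% in C3H and 5.54% in Pde6b rd1. For Pde6b rd10 the median was 6.93%, beside 5.17% from counting, and for Prph rd2 8.07%, beside 5.03%. In C3H and Pde6b rd1 the spread was thus little above counting error, and small p-values rest on it. Both Xist and Y-linked reads were found in every Pde6b rd10 and Prph rd2 sample, and whether samples pool several animals was not tested.

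Promoter sequence was read from RefSeq windows of GRCm38.p6, cut to the 250 bases before the start. 66 members had a window and 19 had none, among them Ndufa4l2. The motif of NRF1, a transcription factor known for its sites in respiratory genes, was searched on both strands as GCGC, any base, then TGCGC. It was found for 13 of the 66 members (19.7%) and for 4.23% of all 27025 genes with a window. The exact palindrome, GCGCA followed by TGCGC, which the wider motif includes, was found for 4 members, Cox6a1, Ndufa11, Atp5g2 and Atp5k, and for 0.877% of all genes. CCGGAAG, the core of the ETS site that GABP binds, was found for 12 members (18.2%) and 7.83% of all genes. The upstream stretch of Cox6a1 is shown because it holds 2 matches and this gene had the second largest fall in Pde6b rd10, that of Ndufb2 because it fell past 1.5-fold without a match, and a stretch of Ndufa11 because it centres on the palindrome. NRF1 matches are in capitals, and each stretch runs 5′ to 3′ on the gene's strand.
Cox6a1, chr5:115348982-115349208, minus strand: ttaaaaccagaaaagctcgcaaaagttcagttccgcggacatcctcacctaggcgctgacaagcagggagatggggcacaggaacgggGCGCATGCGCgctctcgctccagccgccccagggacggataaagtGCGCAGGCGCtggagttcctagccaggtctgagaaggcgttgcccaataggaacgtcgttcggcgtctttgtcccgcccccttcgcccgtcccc
Ndufb2, chr6:39592315-39592564, plus strand: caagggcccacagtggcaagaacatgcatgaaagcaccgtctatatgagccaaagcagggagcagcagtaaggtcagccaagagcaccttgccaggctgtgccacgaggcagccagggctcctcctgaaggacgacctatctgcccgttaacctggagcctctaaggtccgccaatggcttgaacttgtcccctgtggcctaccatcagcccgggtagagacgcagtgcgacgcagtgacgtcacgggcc
Ndufa11, chr17:56717682-56717731, plus strand: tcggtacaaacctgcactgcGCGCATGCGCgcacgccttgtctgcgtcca
A match describes these letters and not a bound site.

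Levels between genes were compared in FPKM, the authors' read counts scaled to gene length and library total. Which length was used for each gene is not given, and a length above that of the expressed transcript lowers FPKM. The order of genes and the medians by complex depend on it. In C3H retina the highest member was Cox8a, a small subunit of cytochrome c oxidase, at 253 FPKM, followed by the catalytic beta subunit of the synthase, Atp5b, at 201 and its alpha subunit, Atp5a1, at 167. The highest member of complex I was Ndufb11 at 81.9 FPKM, of complex II the flavoprotein Sdha at 47.6 and of complex III Uqcr10 at 61.7. The lowest were Sdhc, a membrane anchor, at 18.5 in complex II, Uqcr11 at 26.0 in complex III and Atp5j2, the f subunit of the synthase, at 5.32 in complex V. The median was 18.9 FPKM in complex I, 28.1 in complex II, 42.2 in complex III, 31.5 in complex IV and 36.1 in complex V. Among the 84 neighbouring pairs in this order, the ranges of the 3 samples overlapped in 70, so most neighbours in the order did not differ beyond their spread. Some isoforms and copies were near absent. Cox6a2, the heart and muscle isoform of subunit VIa, had at most 3 counts in a sample, Cox7b2 3, Cox8b 8, Ndufb4c 2 and Ndufa11b 9, and these 5 genes passed no filter on low counts. The other 80 members were tested in every comparison. An exon of 26 members overlaps an exon of a gene on the other strand, and the strand setting of the counting is not given in the sources used here, so reads of the partners may not have been told apart. Among these 26 are Ndufb2, Ndufs6, Ndufs1, Ndufb11, Ndufa11, Ndufa4l2, Cox6c, Cox4i1, Cox5a, Atp5a1 and Atp5f1.

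**Figure D1:**
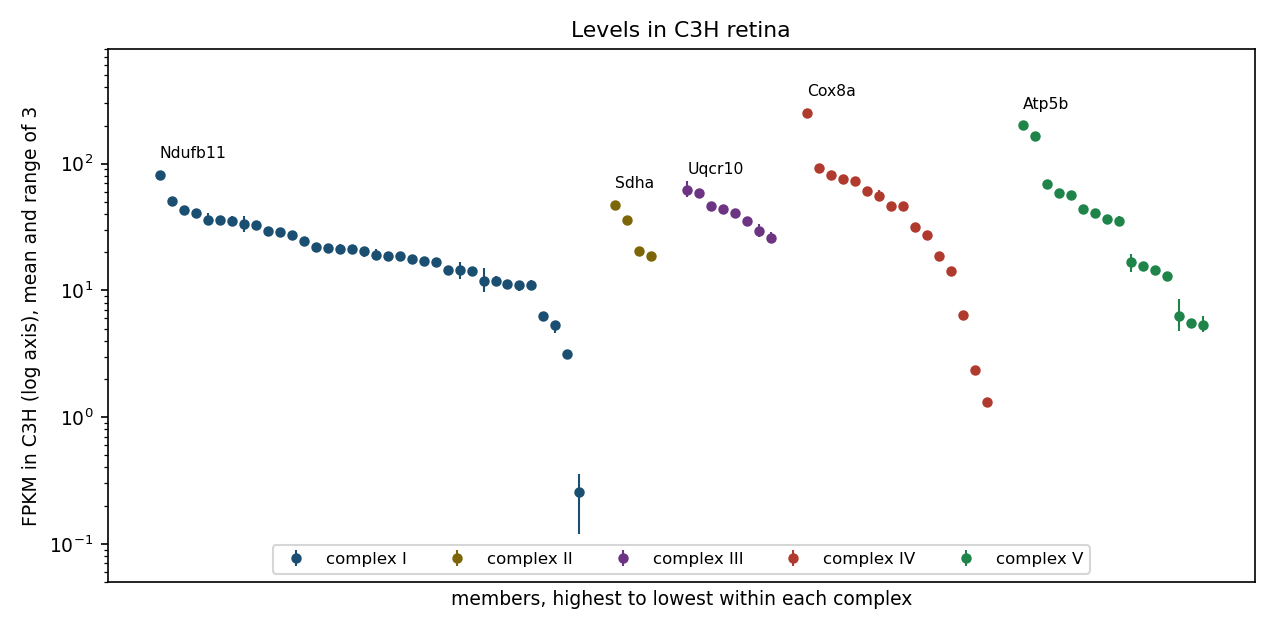
FPKM of the members in C3H retina on a log axis, ordered from highest to lowest within each complex, with means as points and the range of 3 samples as bars. Cox8a at 253 and Atp5b at 201 FPKM stand highest, and Atp5s and 4 genes listed at 0 in a sample are not drawn.

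Against C3H, most members that passed the test were lower, and most of them by a small amount. In Pde6b rd10, 58 of the 80 tested members fell at an adjusted p under 0.05 and 4 rose (edgeR's quasi-likelihood test, adjusted over all genes), beside 26.3% of all genes tested that fell and 27.7% that rose. The median log2 fold change of the members was -0.29, and that of all genes was -0.0025. In Pde6b rd1, 31 members fell and 2 rose, beside 21.3% and 21.9% of all genes, with a median of -0.12 for the members and -0.011 for all genes. In Prph rd2, 15 members fell and 0 rose, beside 5.17% and 4.53% of all genes, and the medians were -0.13 and -0.0012. The lower members of Pde6b rd1 numbered 17 without C3H replicate 3 and 20 without Pde6b rd1 replicate 1, and those of Prph rd2 numbered 7 without C3H replicate 2, 5 without C3H replicate 3, 27 without Prph rd2 replicate 2 and 2 with the same-day C3H sample alone. With all samples of Prph rd2 and C3H, 2 members were higher at an unadjusted p under 0.05 by edgeR, 0 at an adjusted p by DESeq2 and 1 by limma. Samples of model and C3H did not overlap, with the model lower, for 57 members for Pde6b rd10, 40 for Pde6b rd1 and 27 for Prph rd2, beside 28.8%, 28.6% and 14.1% of all genes. They did not overlap, with the model higher, for 5, 1 and 2 members, beside 30.4%, 23.2% and 14.6%. The 3 comparisons share the C3H samples and are not independent of each other. Where 3 changes stand together without names, they are those of Pde6b rd1, of Pde6b rd10 and of Prph rd2 in this order, and all changes of genes are log2 fold changes with their SE.

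Few of these changes reached 1.5-fold. With an unadjusted p under 0.05 and a change of at least 1.5-fold, 1 member was higher and 0 were lower in Pde6b rd1, beside 8.98% and 6.03% of all genes, and DESeq2 and limma also gave 0 lower. In Pde6b rd10, 1 was higher and 4 were lower, beside 15.9% and 8.08%, and in Prph rd2 1 was higher and 1 was lower, beside 2.68% and 1.89%. The 95% interval of the fold change lay within 1.5-fold either way for 77 of the 80 members for Pde6b rd1, 63 for Pde6b rd10 and 72 for Prph rd2, beside 62.8%, 55.9% and 68.0% of all genes. In whole retina, fewer cells of a type and less RNA per cell cannot be told apart. The part of the differences in rod, cone, inner neuron, glial, microglial and endothelial markers in these values was not tested.

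**Figure D2:**
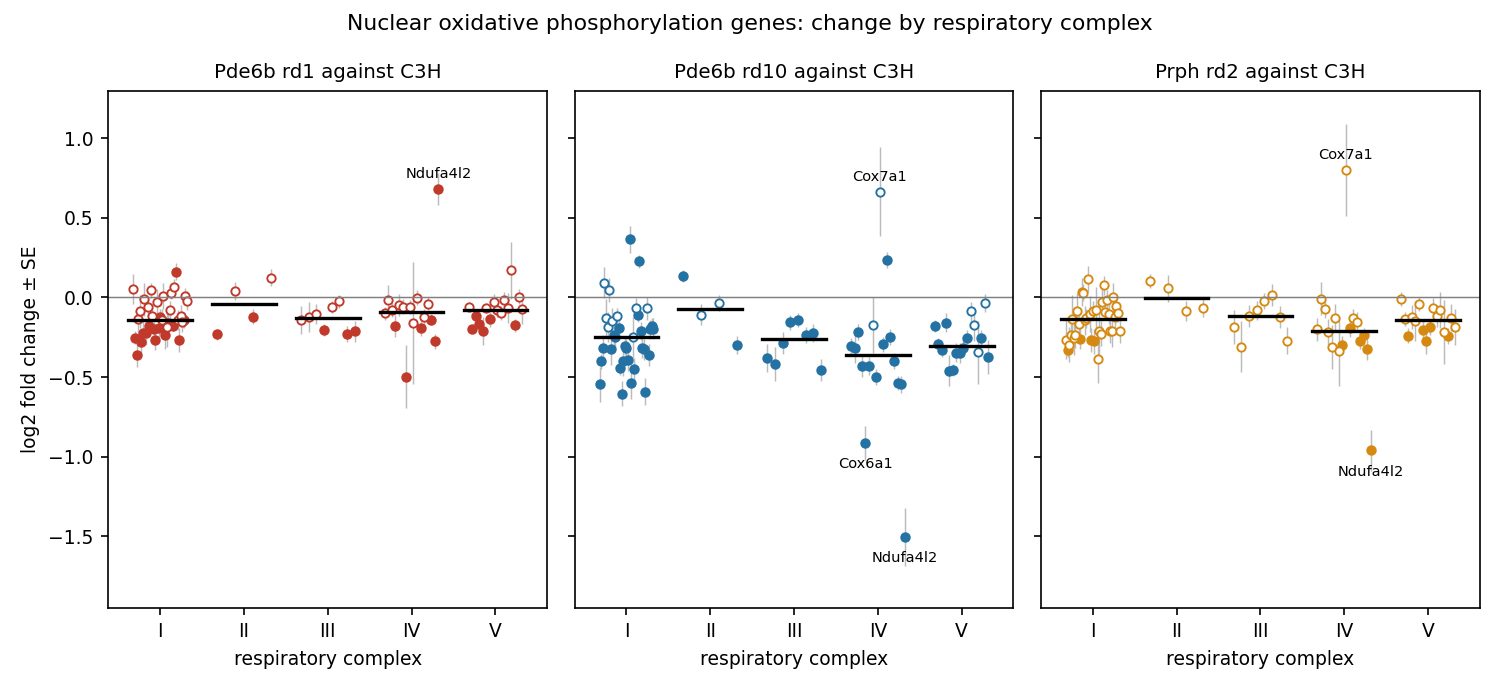
Log2 fold change of each tested member against C3H with its SE, by respiratory complex and model. Filled points have an adjusted p under 0.05, open points do not, and black bars are medians. Ndufa4l2 lies at 0.68 for Pde6b rd1, -1.51 for Pde6b rd10 and -0.96 for Prph rd2.

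By complex, the changes in Pde6b rd10 ran as follows. All 8 members of complex III fell there, with a median log2 fold change of -0.26, as did 13 of 16 tested members of complex IV (median -0.36), 12 of 16 of complex V (median -0.30) and 24 of 35 of complex I (median -0.25). Of the 4 genes of complex II, 1 fell and 1 rose (median -0.07). Among all genes tested in Pde6b rd10, 26.3% fell and 27.7% rose. Summed over members, complex IV stood at 78.4, 79.0 and 75.6% of the C3H mean in the Pde6b rd10 samples, and complex II at 101, 103 and 102%. The C3H samples themselves spanned 96.9 to 105% for complex IV and 98.3 to 102% for complex II, so complex IV of Pde6b rd10 lay below them and complex II overlapped them. In Pde6b rd1 the sums lay within a narrow band, from 89.0 to 92.1% for all 5 complexes and all samples. Prph rd2 samples were wider, with complex IV between 81.9 and 90.1% and complex II between 100.5 and 107%. These sums depend on TMM scaling, whose factors ran from 0.961 to 0.974 in C3H and from 1.03 to 1.04 in Pde6b rd1. Without TMM, members held 0.556% of all counts on average in C3H and 0.539% in Pde6b rd1. The share was 0.488% in Pde6b rd10 and 0.523% in Prph rd2. Whether complexes differ in their change was not tested.

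**Figure D3:**
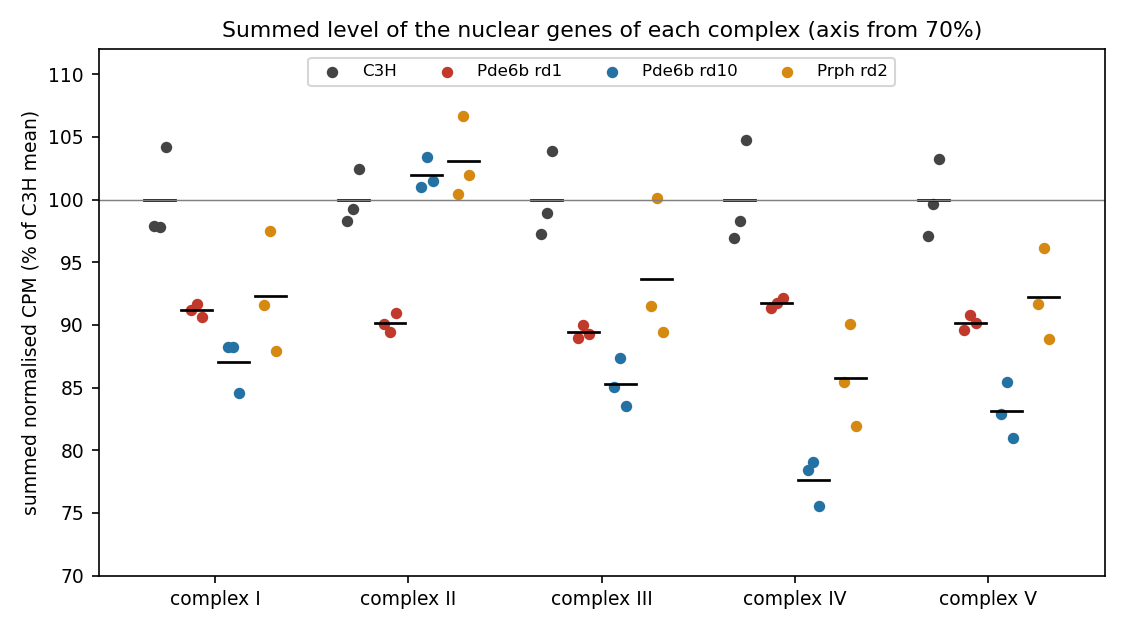
Summed normalised CPM of the nuclear genes of each complex in every sample as a percent of the C3H mean. Black bars are means of 3 samples and the axis starts at 70%. Complex IV lies between 75.6 and 79.0% in Pde6b rd10, while complex II lies between 101 and 103%.

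Within complex I, 24 of 35 tested members fell and 2 rose in Pde6b rd10, beside 26.3% and 27.7% of all genes. The core subunits Ndufs1 and Ndufv1, which carry iron-sulfur clusters and the NADH site, changed by -0.11 and -0.20 in Pde6b rd10, with adjusted p of 0.0488 and 0.00776 by edgeR. Both calls depended on single samples, and without C3H replicate 3 the adjusted p were 0.162 and 0.0694. Ndufb2, an accessory subunit of the membrane arm (chr6:39592574-39603382, plus strand, GRCm38; its exons overlap Braf by 146 and Gm16272 by 156 bases), was at 38.8, 35.3 and 34.3 normalised CPM in C3H and at 21.5, 22.8 and 27.2 in Pde6b rd10, a log2 change of -0.60 ± 0.08 with an adjusted p of 1.67e-06 by edgeR. Ndufs6, an accessory subunit of the NADH arm that binds zinc, went from 20.2, 18.4 and 20.5 to 13.1, 14.0 and 12.01, a change of -0.59 ± 0.08 (edgeR adjusted p of 5.03e-06). In both genes the Pde6b rd10 samples were below every C3H sample. Ndufb7, an accessory subunit of the membrane arm, went the other way, from 14.9, 14.5 and 14.9 normalised CPM in C3H to 19.3, 20.6 and 16.97, a change of 0.37 ± 0.08 with an adjusted p of 0.00106 by edgeR. In Prph rd2, Ndufb2 changed by 0.11 ± 0.08, with an adjusted p of 0.442 by edgeR and a 95% interval of -0.06 to 0.29. Ndufa10, an accessory subunit in the matrix, had the largest fall among the called genes of complex I in Prph rd2, at -0.33 ± 0.05, and changed by -0.25 ± 0.04 in Pde6b rd1 and -0.40 ± 0.05 in Pde6b rd10.

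Complex II also serves the citrate cycle. Its flavoprotein Sdha (chr13:74322254-74350280, minus strand) was at 202, 199 and 208 normalised CPM in C3H. It was at 171, 167 and 171 in Pde6b rd1, whereas the samples of Pde6b rd10 had 223, 225 and 221 and those of Prph rd2 217, 218 and 218. The Pde6b rd1 samples were all below C3H and those of the other models all above. The change was -0.23 ± 0.03 for Pde6b rd1, 0.14 ± 0.04 for Pde6b rd10 and 0.10 ± 0.04 for Prph rd2, with adjusted p of 3.74e-06, 0.00445 and 0.167 by edgeR. Sdhd, a membrane anchor, showed the opposite signs, at 0.13 ± 0.05 in Pde6b rd1 (edgeR adjusted p of 0.0534) and -0.30 ± 0.06 in Pde6b rd10 (edgeR adjusted p of 1.26e-04). Sdhb, the iron-sulfur subunit, passed the test in no comparison, with changes of 0.04, -0.11 and 0.06.

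In complex III, the largest falls were those of the small subunits. Uqcrq changed by -0.46 ± 0.07 in Pde6b rd10 and Uqcr11 by -0.42 ± 0.11. Uqcrh, the hinge protein, had the largest fall in Pde6b rd1, at -0.23 ± 0.05, with an adjusted p of 4.05e-04 by edgeR that was 0.092 with the same-day C3H sample. The core protein Uqcrc1 changed by -0.20 ± 0.04 for Pde6b rd1, -0.16 ± 0.05 for Pde6b rd10 and -0.08 ± 0.06 for Prph rd2, and the Rieske protein Uqcrfs1 by -0.02, -0.23 and 0.02. The first 2 values of Uqcrc1 and the second of Uqcrfs1 passed the test.

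Complex IV held the members with the largest changes. Ndufa4l2, a paralog of Ndufa4 known as a target of the hypoxia-inducible factor, lies at chr10:127514967-127517154 on the plus strand (GRCm38) and was measured at 7.71, 7.38 and 6.77 normalised CPM in C3H and at 11.8, 11.8 and 10.9 in Pde6b rd1. It was at 2.25, 3.78 and 1.79 in Pde6b rd10 and at 4.06, 3.52 and 3.63 in Prph rd2. All samples of the latter models were below every C3H sample, and the Pde6b rd1 samples were all above. The fold changes were 1.61 (95% interval 1.39 to 1.85), 0.352 (0.271 to 0.458) and 0.514 (0.424 to 0.622), on the log2 scale 0.68 ± 0.10, -1.51 ± 0.18 and -0.96 ± 0.13, with adjusted p of 4.78e-06, 5.52e-07 and 2.21e-04 by edgeR. These rest on 36 to 268 reads per sample, and with the day 29 sample as the only C3H sample the edgeR adjusted p in Prph rd2 was 0.0602, the largest of 17 alternatives that began at 1.83e-08. An exon of the gene overlaps Shmt2 on the other strand by 32 bases. Ndufa4 fell in every model, from 83.6, 83.1 and 94.8 in C3H to between 69.2 and 72.2 in Pde6b rd1, 57.7 and 60.8 in Pde6b rd10 and 63.6 and 74.3 in Prph rd2. Its log2 changes were -0.28 ± 0.05, -0.55 ± 0.05 and -0.33 ± 0.07, and the call in Prph rd2 was lost without C3H replicate 3 (edgeR adjusted p of 0.052). Ndufa4l2 thus made up 9.58% ± 1.15 (SD, n = 3) of the FPKM of the pair in C3H, 17.03% ± 0.874 for Pde6b rd1, 5.18% ± 1.89 for Pde6b rd10 and 6.38% ± 0.650 for Prph rd2, and the ranges of C3H and each model did not overlap.

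Cox6a1, the widely expressed isoform of subunit VIa (chr5:115345642-115348981, minus strand), was at 36.4, 39.8 and 45.1 normalised CPM in C3H and at 21.4, 26.3 and 16.8 in Pde6b rd10. It was at 38.7, 42.0 and 34.9 in Pde6b rd1 and at 34.3, 39.9 and 23.4 in Prph rd2. The Pde6b rd10 samples were all below C3H, and the other models overlapped it. The fold change there was 0.530 (95% interval 0.455 to 0.618) with an adjusted p of 2.98e-07 by edgeR. In Pde6b rd1 it was 0.969 (0.877 to 1.07), an interval that lies within 1.5-fold. Cox8a and Cox6c, both small membrane subunits, changed by -0.54 ± 0.04 and -0.50 ± 0.05 in Pde6b rd10 and by -0.24 ± 0.05 and -0.30 ± 0.06 in Prph rd2. Their 4 values passed the test, but with offsets corrected for GC content and transcript length that of Cox8a in Prph rd2 was -0.08, with an adjusted p of 0.380 by edgeR, and over 17 alternatives this p ran from 3.07e-04 to 0.380, passing 0.05 also without C3H replicate 2. Cox6b1, the common isoform of subunit VIb, changed by -0.06, -0.43 and -0.13, and the core subunit Cox5a by -0.08, -0.22 and -0.07, and in each the second value passed the test. That of Cox5a had an edgeR adjusted p of 0.0646 with the same-day C3H sample. Cox4i2, the isoform induced by low oxygen, and Cox4i1, its common counterpart, are set side by side, and Cox4i2 made up between 13.2 and 14.9% of the pair on average in the 4 groups.

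Cox7a2l, which joins complexes III and IV into supercomplexes, was one of the 4 members that rose in Pde6b rd10. It was at 69.3, 67.4 and 75.5 normalised CPM in C3H and at 79.7, 86.9 and 83.3 in Pde6b rd10, and the groups did not overlap. The change was 0.24 ± 0.05 in Pde6b rd10 and -0.19 ± 0.05 in Pde6b rd1, with adjusted p of 6.84e-04 and 0.00172 by edgeR. Cox7a2, the main isoform of subunit VIIa, changed by -0.30 ± 0.05 in Pde6b rd10. The heart and muscle isoform Cox7a1 was far lower, at 0.69 to 0.79 normalised CPM in C3H, 1.09 to 1.24 in Pde6b rd10 and 1.11 to 1.54 in Prph rd2. These values rest on 8 to 37 reads per sample, and the changes of 0.66 ± 0.28 and 0.80 ± 0.29 met the unadjusted rule of 1.5-fold but not the adjusted one, with adjusted p of 0.0512 and 0.0992 by edgeR. Cox6b2, an isoform known from testis, was at 1.77 to 2.36 FPKM on average in the 4 groups and had the largest fall of complex IV in Pde6b rd1, at -0.50 ± 0.20, with an adjusted p of 0.0439 by edgeR that rose to 0.138 without C3H replicate 2.

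**Figure D4:**
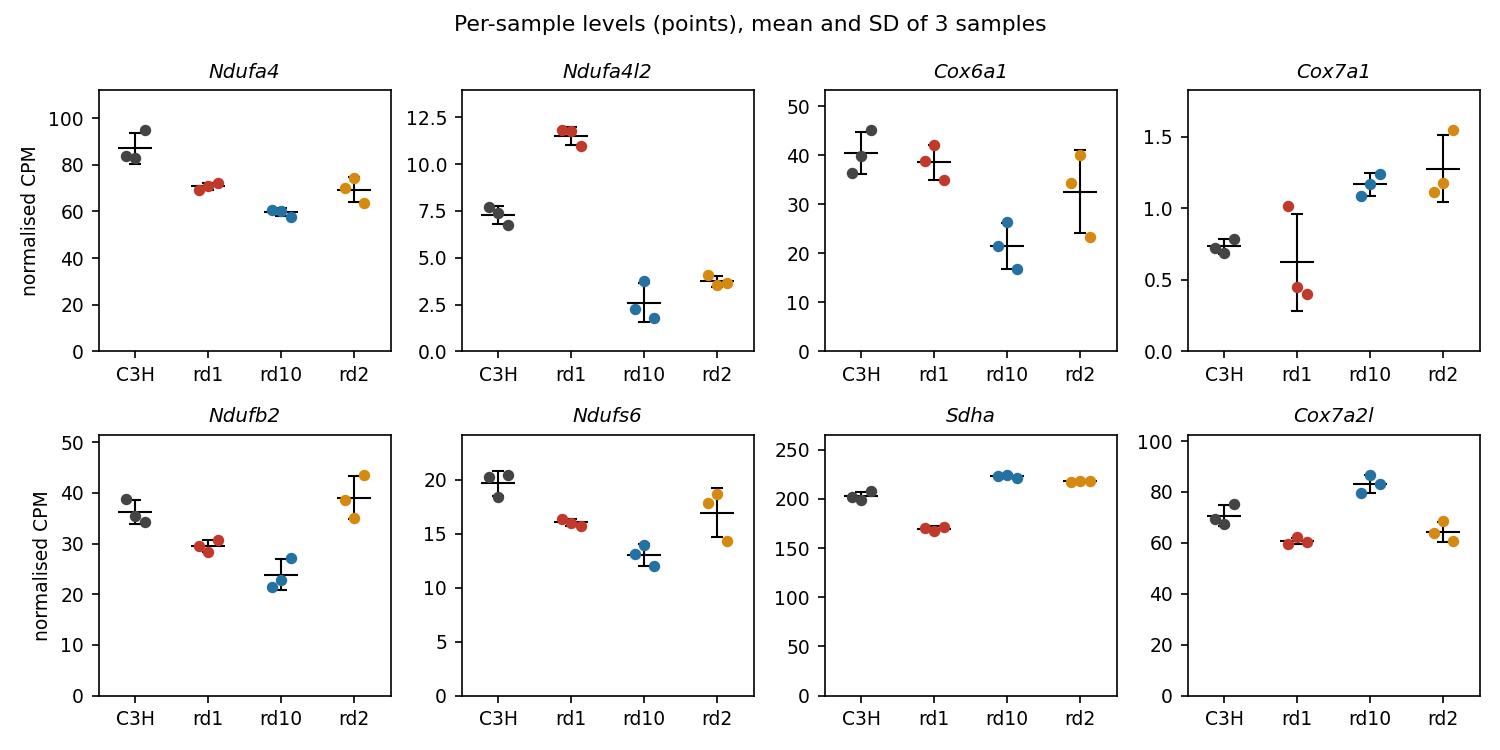
Normalised CPM of 8 members in each sample (points), with the mean and SD of 3 samples per group, and all axes start at 0. Ndufa4l2 is highest in Pde6b rd1 and lowest in Pde6b rd10, Cox6a1, Ndufb2 and Ndufs6 are lowest in Pde6b rd10, and Sdha and Cox7a2l are highest there.

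In complex V, 12 of 16 members fell for Pde6b rd10, 6 for Pde6b rd1 and 5 for Prph rd2. The shares of all genes that fell were 26.3%, 21.3% and 5.17%. Atp5b, the highest of them, was at 850, 881 and 907 normalised CPM in C3H and at 751, 756 and 753 in Pde6b rd1. The samples of Pde6b rd10 had 715, 740 and 703, and those of Prph rd2 798, 830 and 771. All 9 model samples were below every C3H sample. The log2 changes were -0.20 ± 0.03, -0.29 ± 0.03 and -0.14 ± 0.04, with adjusted p of 2.78e-06, 4.57e-07 and 0.0663 by edgeR. Atp5a1, its alpha partner, changed by -0.06, -0.18 and -0.01, and the second passed the test. Atp5e, the epsilon subunit of the central stalk, changed by -0.46 ± 0.10 in Pde6b rd10, level with Atp5f1, the b subunit of the peripheral stalk, at -0.46 ± 0.04, which is named after its values were seen. With the same-day C3H sample alone the change of Atp5e was -0.22, with an adjusted p of 0.156 by edgeR. The 3 genes for the identical c subunit of the rotor, Atp5g1, Atp5g2 and Atp5g3, changed by -0.35, -0.35 and -0.31 there and by -0.21, -0.27 and -0.19 in Prph rd2. All 6 values passed the test, but in Prph rd2 the calls were lost in 8, 10 and 9 of 17 alternatives, among them limma, the same-day C3H sample and leaving out C3H replicate 2 or C3H replicate 3, and that of Atp5g2 had an edgeR adjusted p of 0.277 with GC and length offsets, over a range of 8.44e-04 to 0.277 in 17 alternatives.

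3 members lie on the X chromosome, and the part of the differences in Xist and Y-linked genes between C3H and each model in their values was not tested. Ndufa1 changed by 0.05 ± 0.09, Ndufb11 by -0.20 ± 0.04 and Cox7b by -0.12 ± 0.05 in Pde6b rd1, and by -0.55 ± 0.11, -0.44 ± 0.05 and -0.25 ± 0.05 in Pde6b rd10. In Prph rd2 they changed by -0.27, -0.13 and -0.15, none of which passed the test. Of the 2 members that rose in Pde6b rd1, the other besides Ndufa4l2 was Ndufs4, an accessory subunit of the NADH arm, at 0.16 ± 0.06 with overlapping groups. It is named after its values were seen.

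The Pde6b models, with mutations in the same gene, were compared directly in a fit of all 12 samples. Of the 80 members, 35 were lower in Pde6b rd10 and 7 were lower in Pde6b rd1 at an adjusted p under 0.05, beside 27.0% and 30.2% of all genes, and the median log2 difference was -0.15. Past 1.5-fold, 2 were lower in Pde6b rd10 and 1 was higher, beside 11.2% and 17.6%. The samples did not overlap for 45 members lower and 10 members higher in Pde6b rd10, beside 30.1% and 33.1%, and the interval lay within 1.5-fold for 71, beside 47.4%. Ndufa4l2 was 4.47-fold lower in Pde6b rd10, a log2 difference of -2.16 ± 0.16 with an adjusted p of 6.32e-10 by edgeR. Cox6a1 differed by -0.84 ± 0.15 and Cox6c by -0.41 ± 0.06. Among the 7 higher genes were Cox7a2l at 0.46 ± 0.06, Sdha at 0.39 ± 0.04, Ndufb7 at 0.38 ± 0.13 and Cox7a1 at 0.86 ± 0.33. Day, sex-linked transcripts and the stated strain differ between these models too.

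The mitochondrial genome encodes 13 further subunits, and in Pde6b rd10 their median change had the opposite sign to that of the nuclear genes. The filter on low counts was passed by 12, whose reads were uneven. They ran from 14 to 40 per sample for mt-Nd4l up to 59357 to 132689 for mt-Co1. Of these 12, 10 rose in Pde6b rd10, with a median log2 fold change of 0.33, and 0 fell at either an adjusted or an unadjusted p under 0.05, beside 27.7% of all genes that rose and 26.3% that fell. By DESeq2 5 rose and by limma 9, and 0 fell by either. In Pde6b rd1, 4 fell (median -0.18) and in Prph rd2 3 fell (median -0.40), beside 21.3% and 5.17% of all genes, by DESeq2 3 and 1 fell, and in both models 0 rose by edgeR at an unadjusted p, DESeq2 or limma. mt-Co1, a catalytic subunit of complex IV and the most counted of them, was at 4287, 4157 and 4101 normalised CPM in C3H, at 5338, 4976 and 5466 in Pde6b rd10 and at 3629, 3344 and 3498 in Pde6b rd1. The Pde6b rd10 samples were all above C3H and the Pde6b rd1 samples all below. Its changes were 0.33 ± 0.03 and -0.24 ± 0.03, with adjusted p of 4.57e-08 and 1.90e-07 by edgeR. In Prph rd2 it was at 4141, 3049 and 3785, which overlapped C3H, with a change of -0.19 ± 0.08 (edgeR adjusted p of 0.155). mt-Cytb of complex III changed by 0.40 ± 0.04 in Pde6b rd10 and mt-Nd4 of complex I by 0.14 ± 0.04. The difference between nuclear and mitochondrial genes was not tested.

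**Figure D5:**
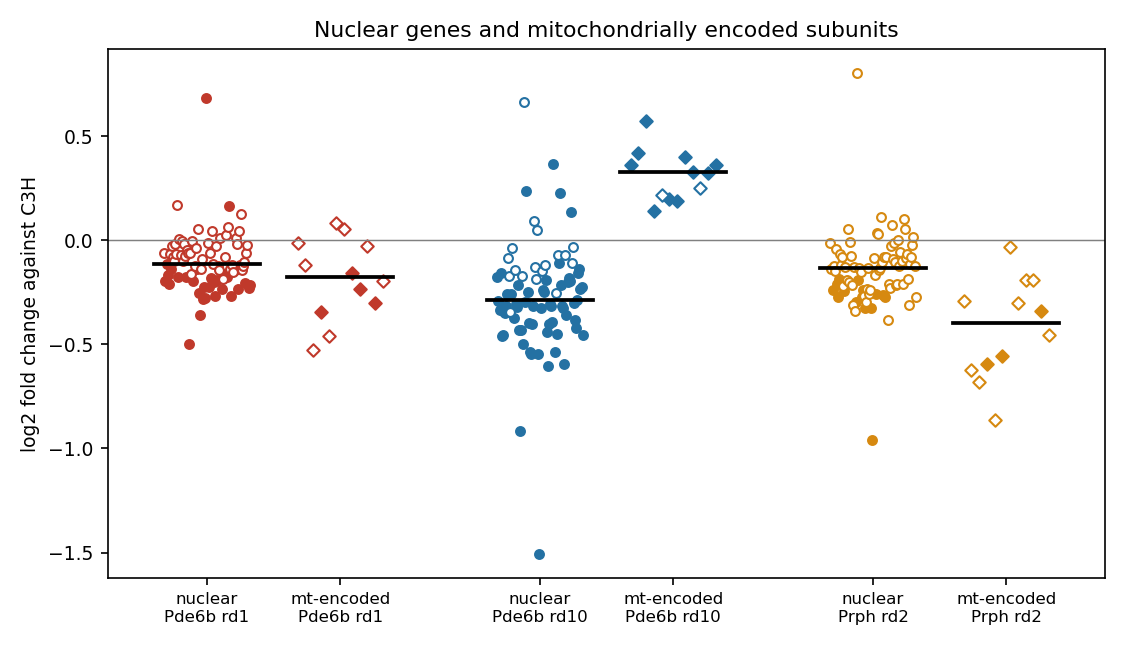
Log2 fold change against C3H of the 80 tested nuclear members (circles) and the 12 tested mitochondrially encoded subunits (diamonds) in each model. Filled symbols have an adjusted p under 0.05 and black bars are medians. In Pde6b rd10 the nuclear median is -0.29 and the mitochondrial median 0.33, while both lie below 0 in the other models.

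Other genes of the pathway were read from lists. Of all genes tested, 27.7% rose and 26.3% fell for Pde6b rd10, 21.9% rose and 21.3% fell for Pde6b rd1, and 4.53% rose and 5.17% fell for Prph rd2. The 6 nuclear subunits and factors outside the name rule, such as Cyc1 (cytochrome c1), Cycs (cytochrome c) and Usmg5, a small synthase subunit, all fell in Pde6b rd10, with changes from -0.55 to -0.24. Of 46 assembly factors, 6 rose and 13 fell in Pde6b rd10, 1 rose and 10 fell in Pde6b rd1, and 1 rose and 1 fell in Prph rd2. The shares that fell in the Pde6b models were near those of all genes, while the shares that rose were below them. Of the complex III factors, Lyrm7, Uqcc1 and Ttc19 rose in Pde6b rd10, by 1.41 ± 0.15, 0.60 ± 0.06 and 0.19 ± 0.05, Uqcc3 changed by -0.26 ± 0.08 and passed the test, and Bcs1l and Uqcc2, at -0.02 and 0.04, did not. Lrpprc, which stabilises mitochondrial messages, rose by 0.83 ± 0.05 in Prph rd2 and changed by -0.08 ± 0.04 in Pde6b rd1 and -0.19 ± 0.04 in Pde6b rd10. These factors are named after their values were seen. Of 12 regulators of mitochondrial biogenesis, 2 rose and 5 fell in Pde6b rd10, 3 rose and 3 fell in Pde6b rd1, and 0 passed the test in Prph rd2, where 0 also had an unadjusted p under 0.05 by edgeR or passed by DESeq2 or limma. The coactivator Ppargc1b changed by -0.65 ± 0.05 for Pde6b rd1, -0.96 ± 0.05 for Pde6b rd10 and -0.12 ± 0.06 for Prph rd2, and Ppargc1a by -0.47 ± 0.04, -0.39 ± 0.05 and -0.01 ± 0.06. Nrf1 itself changed by 0.15, -0.03 and 0.02. Of 16 genes of the citrate cycle, 2 rose and 9 fell in Pde6b rd10, 6 fell in Pde6b rd1 and 1 rose in Prph rd2. Of 20 genes of mitochondrial transport and envelope, 1 rose and 7 fell in Pde6b rd10, 1 rose and 8 fell in Pde6b rd1, and 2 fell in Prph rd2.

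Members with and without a motif match in their promoter window are set side by side. In Pde6b rd10, 11 of the 13 tested members with an NRF1 match fell and 1 rose, with a median log2 change of -0.33, and 37 of the 51 without one fell and 2 rose, with a median of -0.25. Among all genes tested, 26.3% fell and 27.7% rose. The 13 ranged from -0.91 for Cox6a1 to 0.14 for Sdha. In Pde6b rd1 the medians were -0.12 with and -0.12 without a match, and in Prph rd2 -0.21 and -0.14. For the ETS motif they were -0.28 with and -0.30 without a match for Pde6b rd10, -0.08 with and -0.14 without for Pde6b rd1, and -0.13 with and -0.16 without for Prph rd2. No test was made of these differences.

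The mean log2 level of the members was most alike, over the 12 samples, to those of Mdh2 (Pearson's r of 0.971), Ube3b (0.971), Cuedc1 (0.966), Ppp2r5d (0.955) and Srsf4 (0.953), out of 5077 other genes with a mean of at least 10 FPKM. These values are a description, since the samples share groups and depth. Within groups, the median coefficient of variation of the tested members was 5.16% in C3H, 4.23% for Pde6b rd1, 5.15% for Pde6b rd10 and 9.28% for Prph rd2. The last is wider than that of all genes in Prph rd2, 8.07%, where the third sample was lowest and the second highest in the members' mean level. Circular RNAs of these genes were rare. Of 12510 circular RNAs in the junction table, 13 lay within a member and on its strand, from 8 members, and together they had 87 of 214352 junction reads.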

How the data were processed

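Retinal RNA was depleted of ribosomal RNA, made into directional libraries and sequenced. The authors counted reads per gene with HTSeq v0.11.2 on GRCm38, and these deposited counts are raw; the deposited FPKM values are the authors' counts divided by gene length and library total. Per the labels' processing notes, HISAT2 was among the tools, and back-splice counts of circular RNAs came from TopHat2 v2.1.1. The deposited TPM of circular RNAs, scaled by the authors to each sample's junction reads, was not used. Rows naming no gene numbered 0.

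The 85 members were found by symbol and joined to GENCODE vM21 by identifier. The members, the pathway lists and the markers were chosen with earlier results of these data known. Counts of each model were set against those of the 3 C3H samples in R 4.3.3 with edgeR 4.0.16 (TMM, filterByExpr, quasi-likelihood test, Benjamini-Hochberg adjustment over all genes tested), and Pde6b rd10 with Pde6b rd1 by a contrast over 12 samples. An adjusted p under 0.05 was the main call, and an unadjusted p under 0.05 with at least 1.5-fold the study's. The SE is the log2 fold change over the root of the F statistic. Normalised CPM used TMM over the 12 samples. Fits were tested on simulated data.

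Members were named if they passed 1.5-fold, had the largest rise or fall of a complex among those called with groups that did not overlap, were among 12 core subunits, had isoforms, lay on X, or were highest or lowest in a complex. DESeq2 1.42.0 and limma 3.58.1, on log2(FPKM + 1) and log2(FPKM + 0.1), other size factors, low-count filters, a fit of all 12 samples, a replicate block, C3H of the same day only, GC and length offsets and leaving out each sample served as alternatives. The replicate block with GC and length offsets, and those offsets for Pde6b rd10 against Pde6b rd1, were added after seeing the data. Counts between 17049495 and 24755890 per sample set the counting precision. Results for 1 gene that the rule names are not reported here.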

Additional observations from a re-analysis of the deposited data

Results flagged for a closer look

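Ndufa4l2 differed between the Pde6b models. Its log2 change against C3H was 0.68 in Pde6b rd1 and -1.51 in Pde6b rd10, and the direct contrast gave -2.16 (SE 0.16, edgeR adjusted p of 6.32e-10, with every Pde6b rd10 sample below every Pde6b rd1 sample). Day, sex-linked transcripts and the stated strain differ between these models too, and their part was not tested.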

How the results depend on the processing

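Of 2188 values of named genes under the alternatives, 0 reversed a called direction, 137 lost the call, 59 gained it and 1992 kept it. The count of lower members in Pde6b rd10, 58 of 80, was 39 against the C3H sample of the same day and 50 to 60 under the other alternatives with all samples. Other counts moved more, and the cause was not tested.

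In Pde6b rd1, the lower members numbered 31, but 20 with DESeq2, 14 with limma on log2(FPKM + 1), 14 on log2(FPKM + 0.1) and 14 against the C3H sample of day 13. The higher members numbered 2, but 1 with DESeq2, 7 and 6 with limma, 1 in the fit of 12 samples, 1 with that C3H sample and 4 with the replicate block and GC and length offsets. The median was -0.041 with limma on log2(FPKM + 1) and -0.043 on log2(FPKM + 0.1).

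In Pde6b rd10, the median was -0.23 with limma at either pseudocount, -0.20 with GC and length offsets and -0.20 with the block added to them. The member past 1.5-fold and higher became 0 with DESeq2, limma on log2(FPKM + 1), the stricter filter, 12 samples or the same-day C3H sample, and 2 with no filter. The 4 lower became 2 with limma at either pseudocount, the stricter filter or the same-day C3H sample.

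In Prph rd2, the 15 lower members became 6 with limma at either pseudocount, 23 with no filter and 2 with the same-day C3H sample, where the median was -0.20. It was -0.079 with GC and length offsets and -0.080 with the block added. The 0 higher became 1 with limma at either pseudocount and 2 with GC and length offsets, with or without the block. Past 1.5-fold, the 1 higher became 0 with DESeq2, limma on log2(FPKM + 1), the stricter filter or the same-day C3H sample, which also gave 2 lower.

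Leaving out 1 sample gave 17 to 29 lower and 1 to 3 higher members in Pde6b rd1, with 17 without C3H replicate 3, 20 without Pde6b rd1 replicate 1 and 1 higher without C3H replicate 1, C3H replicate 2 or Pde6b rd1 replicate 3. In Pde6b rd10 it gave 53 to 61 lower, 4 higher, and 3 to 5 lower and 0 to 1 higher past 1.5-fold, with 0 without C3H replicate 1 or 2 or Pde6b rd10 replicate 2 or 3. In Prph rd2 it gave 5 to 27 lower, with 7 without C3H replicate 2, 5 without C3H replicate 3 and 27 without Prph rd2 replicate 2, 0 higher, and 1 to 2 lower and 0 to 1 higher past 1.5-fold, with 2 lower without Prph rd2 replicate 2 and 0 higher without C3H replicate 2 or Prph rd2 replicate 3. The medians ranged from -0.14 to -0.076 in Pde6b rd1, -0.31 to -0.25 in Pde6b rd10 and -0.21 to -0.094 in Prph rd2. Between the Pde6b models, 24 to 33 members were lower and 4 to 6 higher, with 4 higher without Pde6b rd1 replicate 3 or Pde6b rd10 replicate 2.

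Samples with the same replicate number correlated at 0.075, 0.049 and 0.098 in Pde6b rd1, where each was closest to its own number, at 0.0019, -0.023 and -0.14 in Pde6b rd10 and at -0.098, 0.046 and -0.080 in Prph rd2, so the numbers were not taken to pair samples. With the replicate block, 27, 56 and 10 members were lower in Pde6b rd1, Pde6b rd10 and Prph rd2, where Atp5g1, Atp5g2 and Atp5g3 had edgeR adjusted p of 0.0718, 0.0678 and 0.0828.

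Depth limits the rarest isoforms. 5 members could not be tested, and Cox7a1 rested on 8 to 37 reads. Members had shorter transcripts than all genes tested in Pde6b rd10, at medians of 1003 and 3072 bases. Mean transcript length weighted by counts was 5280 to 5332 bases in C3H and higher in every model sample. It was 5493 to 5544 in Pde6b rd1, 5341 to 5426 in Pde6b rd10 and 5356 to 5495 in Prph rd2. With GC and length offsets the members' medians were -0.084, -0.20 and -0.079 in these models. Those offsets also correct for GC content, and the part of length alone was not tested.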
